A study of Mus musculus with 18 samples.

Results

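The interval between 7 h and 14 h of estradiol in G1E-ER4 cells was examined by comparing the 3 arrays at 14 h with the 3 arrays at 7 h, which are 6 of the 18 arrays of the series. G1E-ER4 is 1 subclone of G1E, a mouse erythroid line made from embryonic stem cells in which Gata1 had been disrupted, and it carries Gata-1-ER, a fusion of Gata-1 with the part of the estrogen receptor that binds estradiol. The cells at 14 h had been given estradiol 14 h before RNA was taken, and the cells at 7 h had been given it 7 h before. All arrays, those at 0 h included, came from cells with the fusion and without their own Gata1 gene, and the series held no array of estradiol-treated cells lacking the fusion. The remaining times were 0, 3, 21 and 30 h, each with biological replicates A, B and C. The labels do not say what the replicates shared, so the p values measure the spread between these cultures only.

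Gata-1 is the transcription factor that committed erythroid precursors need to mature. It switches on genes for globins, heme synthesis and the red cell membrane, and it helps to silence genes that keep progenitors dividing, such as Kit, Myb and Gata2. As erythroblasts mature they fill with hemoglobin, lower their output of new ribosomes and divide for the last times.

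The measurement was the deposited signal of each probe set, a group of short probes for 1 transcript on the Affymetrix MG-U74Av2 array. Changes are log2 differences, 14 h minus 7 h, after 16 had been added to each signal, which understates the changes of dim genes. A probe set was called when its limma p, adjusted by Benjamini-Hochberg over all 12422 probe sets, was below 0.05. SE marks the standard error of a log2 change. An exact permutation test of 3 against 3 arrays cannot give a p below 0.1, so the calls rest on the variance that limma shares across probe sets. In these bulk samples, fewer cells of a type and less RNA per cell cannot be told apart.

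Array A at 14 h stood apart from the other 5. It had the highest median signal, 50.9, where the others ran from 41.9 to 47.1, and the lowest array quality weight, 0.601. Array A also had the highest median of its time at 0, 7 and 21 h, and at 21 h its weight was 0.572. The 3′ to 5′ ratios of the Gapdh control probes overlapped between the times, with log2 values from -0.084 to 0.108 at 14 h and from -0.118 to 0.105 at 7 h. Of 8 measured erythroid markers 4 rose, and the summed marker signal ran from 30152 to 36448 at 14 h, against 12716 to 17055 at 7 h.

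At 14 h, 289 of the 12422 probe sets differed from 7 h, which is 2.33% of those tested. There were 156 higher (1.26%) and 133 lower (1.07%) probe sets at 14 h, of which 53 rose and 62 fell by at least 2-fold. Leaving out array A at 14 h lowered these counts to 83 higher and 57 lower, and without array C at 7 h they were 93 and 64. Without array A at 7 h, 67 fell. By genes, each taken at its brightest probe set, 126 of 8251 rose (1.53%) and 111 fell (1.35%), and the median log2 change of all genes was -0.00078. An unadjusted limma p below 0.05 was found for 1195 of the 8251 genes, 587 higher and 608 lower. Counts at that level in the lists below are to be read beside it. Of the 289 called probe sets 288 had arrays that did not overlap between the times, against 15.7% of all probe sets. The largest changes named below were also chosen for this, so for them it is a description and no further evidence. The plot of change against signal shows called probe sets in both directions across most of the range of signal. The gene lists below were written with earlier results of these data known, so their counts are descriptions.

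**Figure D1:**
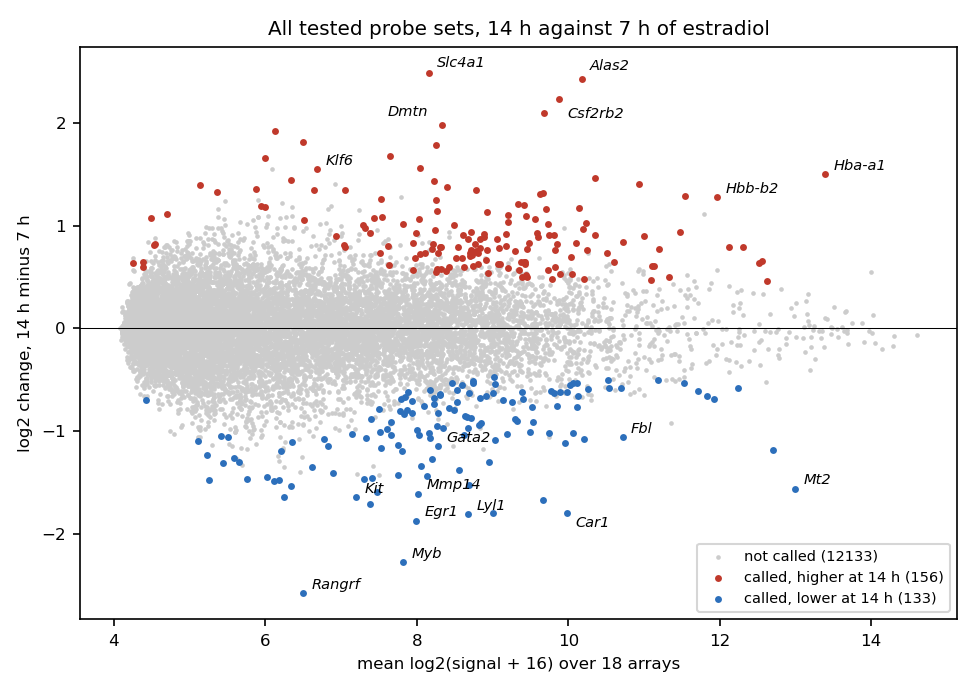
Log2 change (14 h minus 7 h, vertical) against mean log2(signal + 16) over 18 arrays (horizontal) for each of 12422 probe sets. Red points are the 156 called higher at 14 h, blue points the 133 called lower and grey points those not called; Slc4a1 and Alas2 lie at the top and Rangrf and Myb at the bottom.

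The largest rise belonged to Slc4a1, which codes for band 3, the anion exchanger of the red cell membrane. Its signal was 286.7, 393.2 and 177.2 on arrays A, B and C at 14 h, against 65.3, 14.6 and 42.5 at 7 h. The lowest array at 14 h was above the highest at 7 h, and the log2 change was 2.49 (SE 0.37, adjusted p = 0.000822). Alas2, the erythroid form of the enzyme that starts heme synthesis, read 2869.5, 2370.3 and 1855.2 at 14 h, against 661.2, 415.2 and 282.8 at 7 h. The groups did not overlap, and the log2 change was 2.43 (SE 0.22, adjusted p = 1.21e-05). Csf2rb2, the mouse receptor chain that serves interleukin 3, read 3722.1, 1944.2 and 2063.4 at 14 h, against 902.2, 537.8 and 266.7 at 7 h, a log2 change of 2.23 (SE 0.32, adjusted p = 0.000624). Dmtn, dematin of the membrane skeleton, followed with 965.4, 1412.7 and 820.6 at 14 h, against 298.3, 277.2 and 204.7 at 7 h. All 3 arrays at 14 h lay above those at 7 h for both genes, and Dmtn changed by 1.98 (SE 0.21, adjusted p = 2.79e-05). The Alas2 probe set is of a type that may read related transcripts.

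Next in size among the rises was Ctsf, the lysosomal protease cathepsin F, with 130, 102.1 and 79 at 14 h, against 9.8, 24.7 and 11.2 at 7 h. Its groups did not overlap, with a log2 change of 1.92 (SE 0.39, adjusted p = 0.0101), but the call was lost without array A at 14 h or array A at 7 h. Dnajb2, a cochaperone of Hsp70, was tight within each time: 284.6, 274.3 and 247.1 at 14 h, against 66.5, 83.7 and 77.2 at 7 h (log2 change 1.68, SE 0.17, adjusted p = 1.82e-05). Crat, which moves acetyl groups onto carnitine, averaged 366 at 14 h and 115 at 7 h, a change of 1.56 (adjusted p = 7.73e-05). Klf6, a zinc finger transcription factor, averaged 123 at 14 h and 31.5 at 7 h, a change of 1.55 (adjusted p = 0.00224). Slc38a5, a transporter of glutamine and other neutral amino acids, averaged 518 at 14 h and 196 at 7 h (1.38, adjusted p = 1.82e-05). Prr13 averaged 1522 at 14 h and 540 at 7 h (1.46, adjusted p = 0.000448). Lipe, the hormone-sensitive lipase, averaged 101 at 14 h and 27.3 at 7 h (1.45), Ache, acetylcholinesterase of the red cell surface, 722 and 272 (1.43), and Fcna, the lectin ficolin A, 52.3 and 8.4 (1.40). These calls were lost without array A at 14 h or array C at 7 h, and that of Fcna also without array C at 14 h or array A or B at 7 h.

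**Figure D2:**
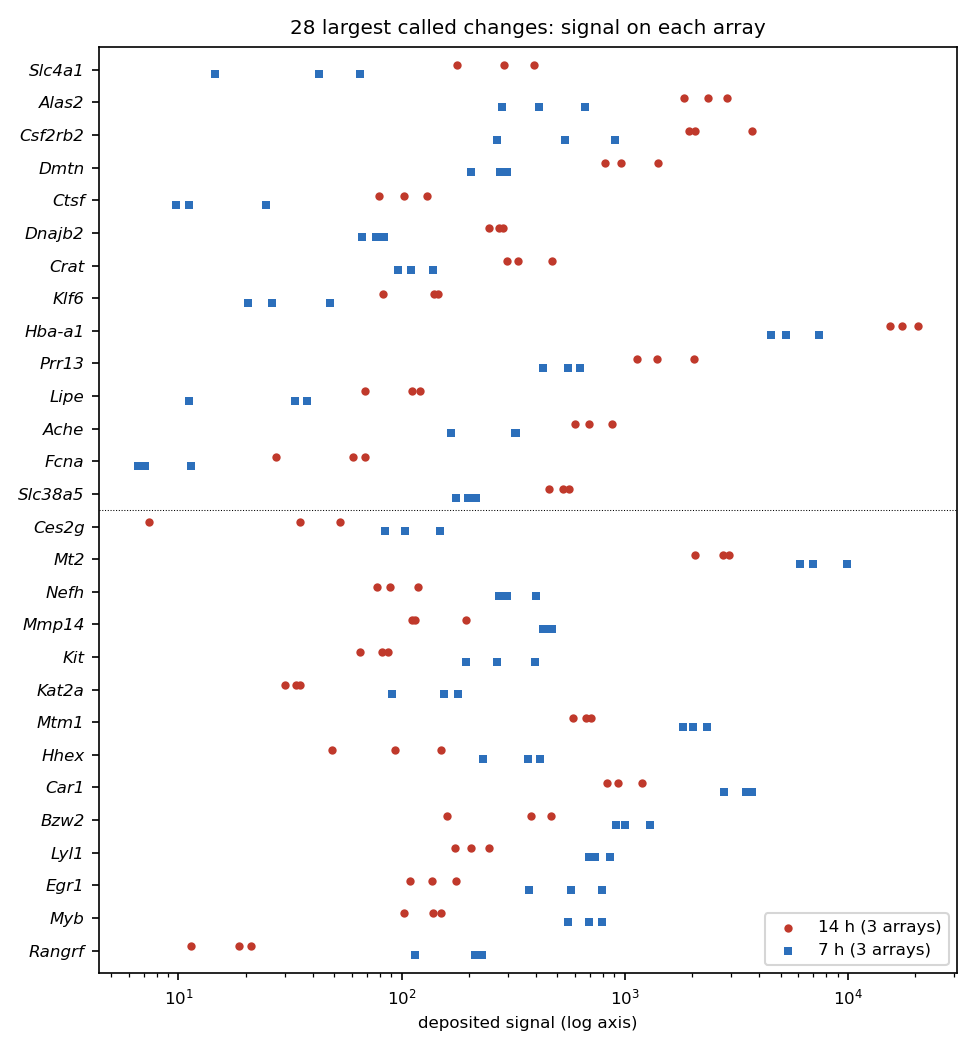
Deposited signal (log axis) of the 14 largest rises and, below the dotted line, the 14 largest falls among genes that were called and whose arrays did not overlap between times. Red circles are the 3 arrays at 14 h and blue squares the 3 arrays at 7 h; Hba-a1 is the brightest gene shown and Rangrf, Ces2g and Fcna reach the lowest signals.

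The promoters of the 4 largest rises with an entry in the RefSeq promoter table (GRCm38.p6) are shown to display whether GATA-type letters lie near the start. Hba-a1 was added after its values were seen. Each runs 5′ to 3′ along its gene, from 250 bases before to 50 after the start. Capitals mark the GATA-type motif, which is GATA with A or T just before it and A or G just after it, on either strand, so that a match on the opposite strand appears as its reverse complement.
Alas2, chrX:150547167-150547466, plus strand: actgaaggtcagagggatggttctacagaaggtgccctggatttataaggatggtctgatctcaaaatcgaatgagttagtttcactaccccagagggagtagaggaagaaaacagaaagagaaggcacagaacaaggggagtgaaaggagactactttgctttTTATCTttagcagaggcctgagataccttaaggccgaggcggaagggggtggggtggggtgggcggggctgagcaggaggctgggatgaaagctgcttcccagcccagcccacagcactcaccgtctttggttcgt
Csf2rb2, chr15:78305672-78305971, minus strand: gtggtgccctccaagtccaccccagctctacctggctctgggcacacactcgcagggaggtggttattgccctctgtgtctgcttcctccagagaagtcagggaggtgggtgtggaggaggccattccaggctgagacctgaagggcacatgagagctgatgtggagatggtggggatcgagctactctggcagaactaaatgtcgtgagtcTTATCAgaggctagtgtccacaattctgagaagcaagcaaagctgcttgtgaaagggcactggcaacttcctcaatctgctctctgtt
Ctsf, chr19:4854915-4855214, plus strand: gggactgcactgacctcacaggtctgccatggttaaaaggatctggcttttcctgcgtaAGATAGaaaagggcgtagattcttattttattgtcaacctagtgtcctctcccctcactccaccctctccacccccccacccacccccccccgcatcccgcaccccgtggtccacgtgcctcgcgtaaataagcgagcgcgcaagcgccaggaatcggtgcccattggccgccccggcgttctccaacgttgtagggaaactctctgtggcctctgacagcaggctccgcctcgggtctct
Dnajb2, chr1:75236173-75236472, plus strand: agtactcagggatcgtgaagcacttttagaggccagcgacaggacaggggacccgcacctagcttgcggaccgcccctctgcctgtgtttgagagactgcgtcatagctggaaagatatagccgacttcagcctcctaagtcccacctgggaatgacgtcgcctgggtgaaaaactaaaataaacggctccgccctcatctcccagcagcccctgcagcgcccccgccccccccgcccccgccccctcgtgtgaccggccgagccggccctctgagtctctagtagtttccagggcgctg
Hba-a1, chr11:32283422-32283721, plus strand: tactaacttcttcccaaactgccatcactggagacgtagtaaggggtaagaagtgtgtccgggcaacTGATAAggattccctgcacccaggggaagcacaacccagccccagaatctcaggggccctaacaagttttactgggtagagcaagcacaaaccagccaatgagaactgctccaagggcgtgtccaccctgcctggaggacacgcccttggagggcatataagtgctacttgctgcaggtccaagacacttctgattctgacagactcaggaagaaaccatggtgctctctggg
Alas2, Csf2rb2, Ctsf and Hba-a1 each held 1 match, and Dnajb2 held 0. At least 1 match was found in 30.2% of the 27025 promoters in the table and in 20.5% of the 6576 promoters of genes on the array. The share was 27.1% of 107 promoters of genes called higher at 14 h and 18.7% of 91 promoters of genes called lower. These shares are descriptions and were not tested.

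The adult globin genes rose in this interval. Hba-a1, an adult alpha globin gene, read 17554.2, 20653.5 and 15547.7 at 14 h, against 5271.6, 7399.7 and 4547.5 at 7 h. The lowest array at 14 h was above the highest at 7 h, with a log2 change of 1.51 (SE 0.16, adjusted p = 2.79e-05). Its mean signals at 0, 3, 7, 14, 21 and 30 h were 6061, 5645, 5740, 17919, 23242 and 26549. Hbb-b2, an adult beta globin gene, read 5785.1, 5952.1 and 4965.4 at 14 h, against 2553, 2733.9 and 1788.5 at 7 h. These groups did not overlap either (1.28, SE 0.18, adjusted p = 0.000448), and its means over the 6 times were 1435, 1926, 2359, 5568, 8764 and 10904. Of the 5 measured members of the globin list these 2 rose and 0 fell. The embryonic globins were far dimmer: Hbb-bh1 averaged 155 at 14 h and 80.5 at 7 h, Hba-x 70.0 at 14 h and 25.5 at 7 h, and Hbb-y 50.7 at 14 h and 29.8 at 7 h, with adjusted p of 0.33, 0.144 and 0.64. The alpha genes, and likewise the beta genes, are near copies of each other, so a probe set cannot be tied to 1 copy.

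Among the 38 lists, heme synthesis had the largest share of members called: 7 of 13 measured genes rose and 0 fell, with a median log2 change of 0.72. Besides Alas2, they included its housekeeping relative Alas1, which read 306.8, 385.3 and 285.1 at 14 h, against 172.4, 108.5 and 177.8 at 7 h (1.07, SE 0.20, adjusted p = 0.00631). The next 3 rising enzymes act in the cytosol: Alad by 0.94, Uros by 0.92 and Urod by 0.91, with SE of 0.20, 0.14 and 0.15. The call of Alad was lost without array B at 14 h or array A or C at 7 h. Tmem14c, which is needed to move a heme precursor into mitochondria, was bright, at 8304 ± 456 at 14 h and 4877 ± 664 at 7 h (SD, n = 3 each; 0.80, adjusted p from limma = 0.000515). Slc25a39, a mitochondrial carrier, changed by 0.53 with an adjusted p of 0.0477 and lost its call under 6 of the other settings. The last mitochondrial enzymes did not pass: Cpox averaged 1223 at 14 h and 987 at 7 h, Ppox 622 and 480, and Fech, read by a dim probe set, 30.5 and 30.0. The plot of signals over time shows that the mean of Alas2 was already above its 0 h level at 3 h and 7 h, while those of Hba-a1 and Slc4a1 were not.

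**Figure D3:**
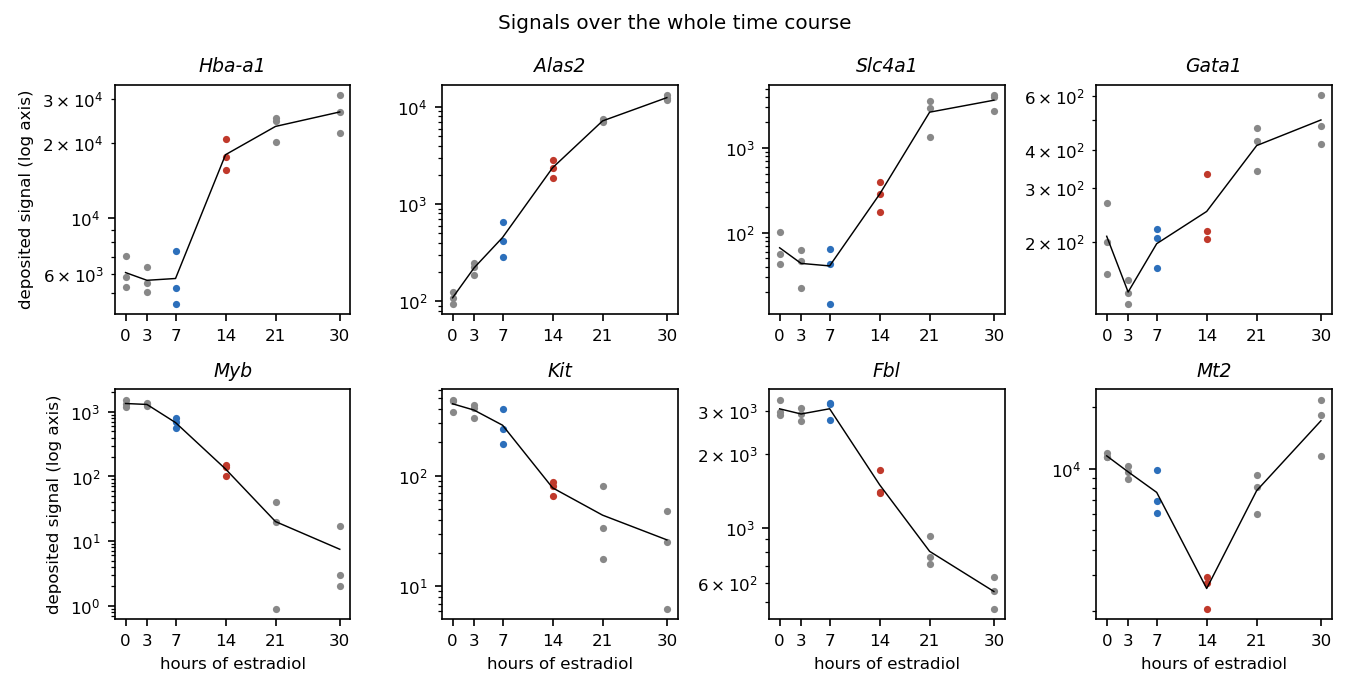
Deposited signal (log axis) against hours of estradiol for 8 genes, 1 point for each array, with a line through the means of 3 arrays. Red points are 14 h, blue points 7 h and grey points the other times; Hba-a1 and Slc4a1 first exceed their 0 h means at 14 h, Myb, Kit and Fbl fall between 7 h and 14 h, and Mt2 is lowest at 14 h.

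Iron handling genes were mixed: of 18 measured, 2 rose and 2 fell, with a median log2 change of -0.03. Hebp1, a heme-binding protein, rose to 1402 at 14 h, against 678 at 7 h (1.07, adjusted p = 0.000476). Ncoa4, the receptor that carries ferritin to lysosomes, rose to 693 at 14 h, against 451 at 7 h (0.65, adjusted p = 0.00768). Tfrc, the transferrin receptor, varied more within each time than between them, with 3160.6, 1925.6 and 2308.2 at 14 h, against 2989.2, 1583.4 and 1899.8 at 7 h. Fth1, the ferritin heavy chain, averaged 5933 at 14 h, against 6200 at 7 h (-0.04, SE 0.13, adjusted p = 0.95). Those that fell were the metallothioneins Mt1 and Mt2, described further on.

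Among 19 genes of the red cell membrane and skeleton, 6 rose and 0 fell, with a median of 0.25. Besides Slc4a1, Dmtn and Ache, these were Rhd, a member of the Rh blood group complex, at 460 at 14 h and 211 at 7 h (1.14), Tspan33, a tetraspanin, at 1495 and 843 (0.82), and Mpp1, a scaffold protein also known as p55, at 2731 and 1946 (0.47). The call of Mpp1 was lost on leaving out any 1 of the 6 arrays. Ank1, erythroid ankyrin, averaged 2692 at 14 h and 1746 at 7 h and missed the threshold (0.58, SE 0.16, adjusted p = 0.077). Of 17 red cell enzymes 2 rose, Prdx2 (0.63) and Pklr (0.79), and Car1 fell. Prdx2 and Pklr, a peroxide scavenger and the red cell pyruvate kinase, lost their calls without array A or B at 14 h or any 1 array at 7 h.

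Receptor signalling genes were represented by 27 members, of which 2 rose and 0 fell, with a median of -0.06. Pim1, a kinase induced by cytokines, averaged 3038 at 14 h and 1615 at 7 h (0.90, adjusted p = 0.0229; not called without array A or C at 14 h or array B or C at 7 h). Csf2rb, the receptor chain shared by interleukin 3, interleukin 5 and GM-CSF, read 4536.3, 3107.7 and 2350.7 at 14 h, against 1968.3, 1600.4 and 831.2 at 7 h. Its arrays did not overlap, as in 15.7% of all probe sets, and it missed the threshold (1.18, SE 0.32, adjusted p = 0.0649). Epor, the erythropoietin receptor, averaged 627 at 14 h and 685 at 7 h (-0.10, SE 0.11). Csf2rb and Csf2rb2 are closely related genes, and reads of one by the other's probes were not tested.

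None of 22 erythroid transcription factors and cofactors was called by limma, while 6 had an unadjusted p below 0.05, 5 of them higher and 1 lower at 14 h. Over all 8251 genes 1195 had such a p, 587 higher and 608 lower. Klf1, a main activator of adult beta globin, averaged 3226 at 14 h, against 2677 at 7 h (0.27, SE 0.11, adjusted p = 0.294). Nfe2, which forms the erythroid factor NF-E2, averaged 1281 and 920 (0.49, adjusted p = 0.144). Gfi1b, an erythroid repressor, averaged 1188 and 1675 (-0.56, SE 0.16, adjusted p = 0.0859). The probe set for Gata1 read 334.1, 204.4 and 216.8 at 14 h, against 164.7, 221.2 and 206.8 at 7 h, groups that overlapped (0.37, SE 0.21, adjusted p = 0.497). Whether that probe set reads the fusion transcript was not tested.

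The largest fall was that of Rangrf, the counterpart of yeast Mog1, which binds the nuclear transport GTPase Ran. It read 21.1, 18.7 and 11.4 at 14 h, against 213.8, 230 and 114.5 at 7 h. The highest array at 14 h was below the lowest at 7 h, with a log2 change of -2.58 (SE 0.36, adjusted p = 0.000448). Its means were 270, 229, 186, 17.1, 18.8 and 31.9 over the 6 times, so that most of the loss fell between 7 h and 14 h. Myb, a transcription factor of dividing progenitors, read 139.1, 102.9 and 149.8 at 14 h, against 793.9, 559 and 693.8 at 7 h (-2.27, SE 0.29, adjusted p = 0.000207). The groups were far apart, and the mean went on falling to 20.0 at 21 h and 7.5 at 30 h. Lyl1, a basic helix-loop-helix factor of early blood cells, read 173.8, 204.4 and 247.9 at 14 h, against 737.7, 863 and 693.2 at 7 h, without overlap (-1.81, SE 0.18, adjusted p = 1.82e-05). A second Lyl1 probe set was also called, at -1.47. The Myb and Lyl1 probe sets are of types whose gene is less certain.

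The promoters of these 3 genes are shown for the same GATA-type letters.
Rangrf, chr11:68973806-68974105, minus strand: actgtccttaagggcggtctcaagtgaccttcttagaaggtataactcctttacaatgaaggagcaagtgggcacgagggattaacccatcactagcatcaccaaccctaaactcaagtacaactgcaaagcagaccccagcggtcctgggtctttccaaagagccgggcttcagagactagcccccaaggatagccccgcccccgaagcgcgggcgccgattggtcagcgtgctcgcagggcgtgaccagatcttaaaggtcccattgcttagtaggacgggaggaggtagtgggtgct
Myb, chr10:21160935-21161234, minus strand: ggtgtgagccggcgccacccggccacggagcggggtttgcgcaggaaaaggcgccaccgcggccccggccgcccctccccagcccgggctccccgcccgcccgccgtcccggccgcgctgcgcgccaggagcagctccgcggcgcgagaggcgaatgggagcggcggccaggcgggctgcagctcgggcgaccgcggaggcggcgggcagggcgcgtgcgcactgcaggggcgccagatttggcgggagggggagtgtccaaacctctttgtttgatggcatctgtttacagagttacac
Lyl1, chr8:84701207-84701506, plus strand: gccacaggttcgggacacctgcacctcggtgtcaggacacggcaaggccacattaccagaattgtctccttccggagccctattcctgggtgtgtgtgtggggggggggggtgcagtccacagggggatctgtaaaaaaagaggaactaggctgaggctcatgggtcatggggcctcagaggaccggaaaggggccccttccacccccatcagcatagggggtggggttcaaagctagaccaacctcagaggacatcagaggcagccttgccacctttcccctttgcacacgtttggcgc
Each of the 3 windows held 0 matches.

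Of 33 regulators of stem and progenitor cells, 7 fell and 1 rose, where 1.35% of all genes fell and 1.53% rose. The median was -0.04, and 12 of the 33 were under a signal of 50 on all 6 arrays. Besides Myb and Lyl1, those that fell were Hhex, Kit, Gata2, Myc and Cbfb. Kit, the receptor for stem cell factor, read 65.1, 81.4 and 87 at 14 h, against 266.9, 194.7 and 397.1 at 7 h (-1.64, SE 0.36, adjusted p = 0.017). Its arrays did not overlap, but the call was lost without array A at 14 h, array A at 7 h or array C at 7 h. Gata2, the GATA factor of progenitors, read 175.1, 126.8 and 122.6 at 14 h, against 351.7, 274.5 and 389.1 at 7 h (-1.15, SE 0.23, adjusted p = 0.0102; not called without array C at 7 h). Over the 6 times Gata2 averaged 1909, 454, 338, 142, 125 and 112, so that the earlier 3 h had held a larger drop than the interval from 7 h to 14 h. Hhex, a homeobox factor, averaged 97.3 at 14 h, against 340 at 7 h (-1.71, adjusted p = 0.0288), and Myc averaged 49.7 and 120 (-1.11, adjusted p = 0.0326); both calls were lost without array A or B at 14 h or array A or C at 7 h. Cbfb, the partner of the Runx factors, fell by 0.77 on its brighter probe set and by 0.90 on the other; the brighter probe set lost its call without array B or C at 14 h or array A at 7 h. Id2, the 1 member that rose, was dim, with 13.4 at 14 h and 2.6 at 7 h, and was not called with scaling to a common median or without any 1 of 5 arrays, among them array A at 14 h.

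Other large falls lay outside these regulators. Car1, carbonic anhydrase 1, read 830, 936.9 and 1202.5 at 14 h, against 2798.4, 3509.5 and 3735.3 at 7 h, without overlap (-1.80, SE 0.18, adjusted p = 1.82e-05). Its mean had been 3604 at 0 h and 3481 at 3 h, so that it stood near its starting level until 7 h. Mmp14, a membrane-bound matrix protease, averaged 140 at 14 h, against 456 at 7 h (-1.61, adjusted p = 3e-05), and Kat2a, the histone acetyltransferase Gcn5, averaged 32.9 and 141 (-1.65, adjusted p = 0.00078). Mtm1, a phosphoinositide phosphatase, averaged 654 and 2063 on a probe set of uncertain type (-1.67), while its other probe set changed by 0.38 and was not called. Nefh, a neurofilament gene, averaged 95.0 and 323 (-1.60), Bzw2 335 and 1072 (-1.80), and Ces2g, a carboxylesterase, 31.8 and 112 (-1.54). Egr1, an immediate early factor induced by MAP kinase signalling, read 175.2, 109.6 and 137.6 at 14 h, against 373.3, 574.2 and 793.1 at 7 h (-1.87, SE 0.46, adjusted p = 0.036). Its groups did not overlap, but its call was lost on leaving out any 1 of the 6 arrays except array A at 7 h. Klf6 and Egr1 were the 2 called members of 24 MAP kinase and immediate early genes, 1 in each direction.

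Genes for making ribosomes were mostly lower at 14 h. Of 51 measured, 12 fell and 0 rose, 4 had a positive change, and the median was -0.48, where all genes had -0.00078. Their summed signal was 20020, 25340 and 26751 on arrays A, B and C at 14 h, against 35121, 38681 and 34705 at 7 h, so array A at 14 h was the lowest and the groups did not overlap. Without that array 3 of the 51 were called lower, and with scaling to a common median 6 were, with medians of -0.42 and -0.53. Fbl, fibrillarin, the methyltransferase of ribosomal RNA, read 1397.2, 1387.6 and 1720.2 at 14 h, against 3231.3, 3196.1 and 2748 at 7 h (-1.06, SE 0.14, adjusted p = 0.000207). Its highest array at 14 h was below its lowest at 7 h, and its means at 0, 3 and 7 h were 3057, 2913 and 3059. Gar1, of the particles that modify uridine in ribosomal RNA, averaged 975 at 14 h, against 1972 at 7 h (-1.12, adjusted p = 0.00346), and Tcof1, a nucleolar cofactor of ribosomal RNA transcription, averaged 239 and 442 (-0.83, adjusted p = 0.00631). The abundant nucleolar proteins Npm1, at 3451 and 5394, and Ncl, at 4151 and 6096, fell by 0.68 and 0.58. The remaining called members were Rrp12, Tsr1, Nop58, Rrs1, Ebna1bp2, Nip7 and Ddx18. The same list had a median change of -0.40 from 3 h to 7 h and -0.53 from 14 h to 21 h, intervals that share arrays with this one.

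Of 35 ribosomal protein genes limma called 0, where 1.53% of all genes were called higher and 1.35% lower. An unadjusted p below 0.05 was found for 1, and the median was -0.0051. Under a signal of 50 on all 6 arrays were 8 of the 35. The summed signal of the 35 ran from 230478 to 242915 at 14 h and from 187245 to 268373 at 7 h. Of 70 translation factors and aminoacyl tRNA synthetases limma also called 0, with 14 at an unadjusted p below 0.05, 3 higher and 11 lower. Of 33 genes of the Ran cycle and nuclear transport, Rangrf and the importin Ipo5 fell, Tnpo2 rose, and the median was -0.31. Mitochondrial import and heat shock genes had a median of -0.42 over 20 members, with 1 call, Phb2, a prohibitin, at 727 at 14 h and 1189 at 7 h (-0.75). The Ran and mitochondrial medians were -0.16 and -0.29 without array A at 14 h. Averaging all probe sets of each gene gave -0.16 and -0.27. Tnpo2 was not called without array A at 14 h or with scaling to a common median, and Phb2 was not called with that scaling. Of 30 genes for polyamines, nucleotides and one-carbon units 3 fell, the purine genes Adss (-0.88), Gart (-0.85) and Hprt (-0.61). Without array A at 14 h, without quantile normalization or with scaling to a common median 1 of the 30 was called lower, and the second Adss probe set was not called (-0.28, adjusted p = 0.617). The plot of lists places ribosome biogenesis lowest and globins and heme synthesis highest by median.

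**Figure D4:**
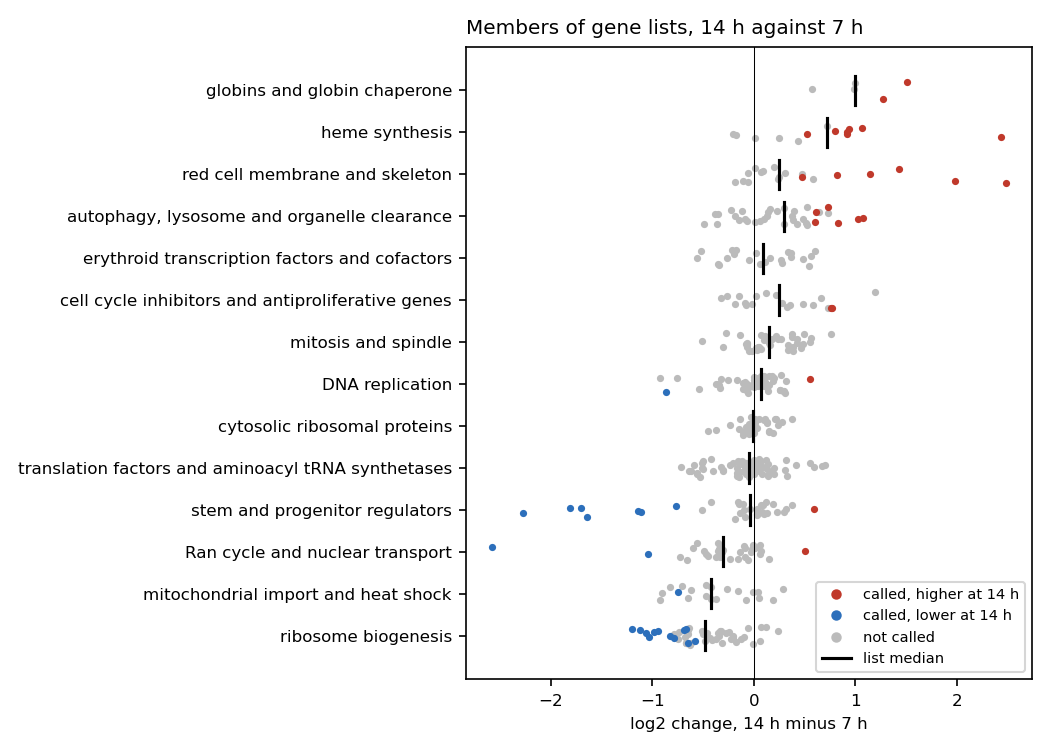
Log2 change, 14 h minus 7 h (horizontal), of each measured member of 14 gene lists, with the list median as a black bar. Red points were called higher at 14 h, blue points called lower and grey points not called; globins and heme synthesis have the highest medians and ribosome biogenesis the lowest, at -0.48.

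Calls among cell division genes are given beside all 8251 genes, of which 1.53% were called higher and 1.35% lower. Of 41 mitosis and spindle genes limma called 0, 5 had an unadjusted p below 0.05, all higher at 14 h, and the median was 0.15. Over all genes 1195 of 8251 had such a p. Plk1, a mitotic kinase, averaged 958 at 14 h and 844 at 7 h (0.16, SE 0.13), and Mki67, a proliferation marker, 971 and 799 (0.24, SE 0.21). Of 51 DNA replication genes 1 rose, Rnaseh2a, and 1 fell, Cdca7, with a median of 0.07; neither was called without array A at 14 h or with scaling to a common median. From 14 h to 21 h the same replication list had a median of -0.71 with 17 called lower, and the mitosis list a median of -0.33 with 1 called lower. Of 20 cell cycle inhibitors 2 rose: Cdkn2c, the p18 inhibitor of Cdk4 and Cdk6, at 584 at 14 h, against 347 at 7 h (0.76, adjusted p = 0.00378), and Gadd45a, a growth arrest gene, at 463 and 278 (0.77, adjusted p = 0.0229). With scaling to a common median neither was called, and Gadd45a was lost without array A or C at 14 h or array A or C at 7 h. Of 15 G1 cyclins, kinases and E2f factors, and of 28 apoptosis regulators, limma called 0, with 2 and 5 at an unadjusted p below 0.05.

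Genes of autophagy, lysosomes and organelle clearance had 6 of 35 called higher and 0 lower, with a median of 0.30. The lysosomal proteases were Ctsb at 1680 at 14 h and 820 at 7 h (1.03, adjusted p = 0.000476), Ctsa at 158 and 67.6 (1.07, adjusted p = 0.0022) and Ctsd at 1516 and 907 (0.73, adjusted p = 0.00962). The other 3 serve the autophagosome: Map1lc3b (0.83), Gabarap (0.61) and the cargo receptor Sqstm1 (0.61). Ctsb also had dimmer probe sets that were not called, at 0.28, -0.32 and 0.49. The summed signal of the 35 did not overlap between times, at 18343 to 18835 at 14 h, against 13561 to 13871 at 7 h. Without array A at 14 h 3 of the 35 were called, and with scaling to a common median 2 were. In the list of nuclear condensation and late erythroid ubiquitin genes Ube2l6, a ubiquitin-conjugating enzyme, rose (0.83; not called without array A at 14 h or with scaling to a common median) and Rac1, a regulator of the actin skeleton, fell to 717 at 14 h, against 1480 at 7 h (-1.08, adjusted p = 0.00117).

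The calls in the remaining lists are given beside all genes, of which 1.53% were called higher and 1.35% lower. Ddit3, the stress factor Chop, rose to 998 at 14 h, against 432 at 7 h (1.21, adjusted p = 0.000858), and the Hsp90 partner Fkbp4 fell by 0.55, among 36 chaperone and unfolded protein genes. Of 73 respiratory chain genes 1 rose, Cox6b2, on a probe set of uncertain type (1.21). The citric acid cycle had 1 rise (Dlst) and 2 falls (Suclg2 and Pdha1) of 23, fatty acid and cholesterol synthesis 1 rise (Fads1) and 1 fall (Fasn) of 23, and the proteasome 1 fall (Psmg1) of 44. None of the 3 citric acid cycle calls held without array A at 14 h or with scaling to a common median, and the falls of Fasn and Fkbp4 were also lost in both. Glycolysis had Pklr alone of 24. Of 26 interferon genes limma called 0, with 2 at an unadjusted p below 0.05, and 15 were under a signal of 50 on all 6 arrays. Of 15 estrogen receptor target genes Ctsd rose and Myc fell, with a median of 0.20, and 6 were under 50 on all 6 arrays.

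Most markers of other cell types were dim at both times: under a signal of 50 on all 6 arrays were 10 of 12 mast cell and basophil, 11 of 18 neutrophil and macrophage, 7 of 14 lymphocyte, 8 of 12 fibroblast and 6 of 8 embryonic stem cell markers. Of 7 measured megakaryocyte markers 5 were under 50 on all 6 arrays, and their summed signal ran from 191 to 267 at 14 h, against 137 to 161 at 7 h. Gp9, a platelet glycoprotein, was the 1 called, at 118 at 14 h and 42.2 at 7 h (1.19, adjusted p = 0.017; not called without array A or B at 14 h or array B at 7 h). Limma called 0 of 12 mast cell and basophil, 18 neutrophil and macrophage, 14 lymphocyte, 12 fibroblast and 8 embryonic stem cell markers, with 2, 0, 1, 1 and 0 at an unadjusted p below 0.05. Their part in the results was not tested.

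The called probe sets mostly had their extreme means after 14 h, a description of means that was not tested. Of the 156 probe sets called higher, 92 had their highest mean at 30 h, 43 at 21 h and 21 at 14 h. Of the 133 called lower, 82 had their lowest mean at 30 h, 36 at 21 h and 13 at 14 h. Pklr, Fads1, Rnaseh2a and Gp9 were among those highest at 14 h, and Rangrf, Mt1 and Mt2 among those lowest then. Of all 12422 probe sets, the highest mean lay at 14 h in 14.7%, at 21 h in 15.6% and at 30 h in 28.4%, while the lowest mean lay at 14 h in 10.3%, at 21 h in 13.9% and at 30 h in 21.5%. A probe set called higher at 14 h can hardly have its highest mean at 7 h, nor one called lower its lowest. The shares of all probe sets are therefore not a like comparison.

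The change from 7 h to 14 h was set against the change over the next, equally long interval, 14 h to 21 h, to ask which genes moved differently in the earlier of the 2. The difference between the changes was called for 6 probe sets, or 0.0483% of those tested, and the 14 h arrays enter both changes. Without array A at 14 h there were 10 such probe sets, and without array B at 14 h there was 1. Mt2, a metallothionein, which binds zinc and copper, had the most negative difference among named genes. It read 2061.3, 2760.6 and 2935.9 at 14 h, against 6082.4, 6961.3 and 9878.8 at 7 h and 5967.2, 9330.6 and 8090.1 at 21 h. The 3 arrays at 14 h lay below those of both neighbouring times, with a change of -1.56 (SE 0.22, adjusted p = 0.000554) followed by 1.53 (adjusted p = 0.000764), a difference of -3.09 (SE 0.39, adjusted p = 0.00254). Mt1, its neighbour on chromosome 8, read 2015.8, 3143.8 and 3357.3 at 14 h, against 5574.6, 5699.2 and 8076.5 at 7 h. It went the same way, by -1.18 (SE 0.20, adjusted p = 0.00232) and then 1.12 (adjusted p = 0.00456), a difference of -2.30 (SE 0.35, adjusted p = 0.0125). Mean signals of Mt2 over the 6 times were 11534, 9633, 7641, 2586, 7796 and 17134, and those of Mt1 were 8258, 6535, 6450, 2839, 6477 and 15448. With scaling to a common median neither difference was called, at -3.22 (adjusted p = 0.0626) and -2.50 (adjusted p = 0.0971), although both falls at 14 h were. The Mt1 difference was also lost without array A at 14 h (adjusted p = 0.0605), without array B at 14 h (0.0602), without the intensity trend (0.0728) and with the compared times alone (0.185).

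The promoters of both metallothionein genes are shown with matches to the core of the metal response element, spelled TGCGCNC in one form and TGCACNC in the other and searched on both strands, in capitals; both were chosen after the values were seen.
Mt2, chr8:94172368-94172667, plus strand: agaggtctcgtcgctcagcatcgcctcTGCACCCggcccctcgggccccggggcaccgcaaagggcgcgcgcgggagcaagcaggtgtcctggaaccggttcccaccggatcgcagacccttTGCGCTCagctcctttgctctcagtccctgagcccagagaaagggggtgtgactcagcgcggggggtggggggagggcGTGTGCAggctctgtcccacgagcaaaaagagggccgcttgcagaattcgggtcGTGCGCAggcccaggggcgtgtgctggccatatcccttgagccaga
Mt1, chr8:94178839-94179138, plus strand: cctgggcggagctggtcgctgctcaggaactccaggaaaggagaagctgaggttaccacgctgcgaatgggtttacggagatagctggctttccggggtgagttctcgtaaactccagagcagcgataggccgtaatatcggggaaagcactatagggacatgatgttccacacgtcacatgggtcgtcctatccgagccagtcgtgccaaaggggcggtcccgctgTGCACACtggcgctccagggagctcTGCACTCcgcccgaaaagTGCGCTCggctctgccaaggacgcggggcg
Mt2 held 4 matches and Mt1 held 3. At least 1 match lay in 34.1% of the 6576 promoters of genes on the array, in 29% of the 107 of genes called higher at 14 h and in 36.3% of the 91 of genes called lower. The CACCC box, CCACACCC, was searched in the same way and lay in 4.08% of the promoters of genes on the array, 7.48% of those called higher and 4.4% of those called lower. E-boxes with CG, GA or GC between CA and TG lay in 32.4%, 43.9% and 33% of the same 3 sets. All 4 motif families were chosen after the data were seen, and no share was tested.

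Of the other 4 differences, Foxa3, a forkhead factor, was dim, with 46.4, 32 and 22.5 at 14 h, against 10.4, 4.6 and 3.1 at 7 h and 11.2, 2.7 and 1.2 at 21 h. Its difference was 2.34 (SE 0.41, adjusted p = 0.0391) and was lost in most other analyses. Pold2, a subunit of DNA polymerase delta read by a probe set of uncertain type, was not called between 14 h and 7 h, at 433 and 620 (-0.54, adjusted p = 0.121), and had 62.7 at 21 h. A bright probe set that carried no gene symbol read 1928, 2126.2 and 1533.3 at 14 h, against 454.1, 413 and 417.2 at 7 h. It had the largest rise among the 6, with 2.09 (SE 0.14, adjusted p = 1.92e-07), and 2774 at 21 h. The last, dim and also without a symbol, averaged 16.9 at 14 h, 4.3 at 7 h and 4.3 at 21 h.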

How the data were processed

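RNA of G1E-ER4 cells was hybridized to Affymetrix MG-U74Av2 arrays, 1 for each of 18 samples, 3 at each of 6 times. The deposited values were linear signal intensity values, 1 for each probe set and array, from 0 upwards, whose trimmed mean was about 150.1 on every array, so they had been scaled before deposit. The summary algorithm, scaling target and detection calls are not given in the sources used here. No 2 arrays were identical (0 pairs).

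Of 12488 probe sets, 66 controls were left out. The platform annotation gave 10833 of the 12422 tested 1 gene symbol, 396 several and 1193 none, and 10817 were found in the RefSeq gene table by gene number. The 8251 genes were each represented by their brightest probe set with 1 symbol. Probe sets ending in _f_at, _s_at, _r_at, _i_at or _g_at count as uncertain.

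After 16 was added, log2 values were quantile normalized and fitted with limma 3.58.1 in R 4.3.3 (lmFit, eBayes with intensity trend) on all 18 arrays with 1 mean for each time, leaving 12 residual degrees of freedom. Contrasts were 14 h minus 7 h, and that change minus the change from 14 h to 21 h. The fit was tested on simulated data. Members, lists and rules for naming were chosen with earlier results of these data known. The rule named the 14 largest rises and falls among called genes whose arrays did not overlap, up to 5 differences each way, members of the 38 lists, and Gata1 and Gata2. The alternatives were other normalizations, added constants, filters and variance models, a model of the compared times alone, a replicate block, and each array of the compared times left out. Same-lettered arrays at 14 h and 7 h had deviations that correlated at 0.040, -0.0072 and 0.047, and those at 14 h and 21 h at 0.205, 0.104 and 0.034. Array A at 14 h correlated at -0.144 and -0.0963 with arrays B and C at 21 h. The letters were not taken as pairs in the main model, and whether arrays of 1 letter shared an effect was not tested. Depth has no counterpart on arrays, and 3 arrays at each time limit the precision.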

Additional observations from a re-analysis of the deposited data

Results flagged for a closer look

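The change from 7 h to 14 h differed from the change from 14 h to 21 h for 6 probe sets by limma's test of the difference itself. The metallothioneins stood out on the negative side, with differences of -3.09 for Mt2 and -2.30 for Mt1: both were lower at 14 h than at 7 h and at 21 h. On the positive side Foxa3 had a difference of 2.34 at signals between 1.2 and 46.4, and its call was lost in most alternatives. The Mt2 difference was called in every alternative run except median scaling, with adjusted p from 0.000143 to 0.0626. The Mt1 difference was lost with median scaling, without the intensity trend, with the compared times alone, and without array A or array B at 14 h.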

How the results depend on the processing

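No named or listed gene called in the comparison of 14 h with 7 h changed direction under any alternative, and 325 pairs of a gene and an alternative lost the call. Of 90 called genes of the lists and rules, 17 to 40 lost their call on leaving out 1 array at 14 h or 7 h, the most without array A at 14 h. Against 156 higher and 133 lower probe sets and 6 differences, a model of the compared times alone called 47, 29 and 1, scaling to a common median 84, 74 and 0, and a model without the intensity trend 109, 90 and 1. Median scaling kept 156 of the 289 calls and the compared times alone kept 75, and the cause was not tested. The model of the compared times alone also had fewer arrays. Leaving out 1 array at 14 h or 7 h gave 83 to 137 higher probe sets and 57 to 108 lower, and leaving out 1 at 7, 14 or 21 h gave 1 to 10 differences. A replicate block, though the letters were not taken as pairs, gave 183, 158 and 7. Array quality weights, added constants of 1 and 64, the lowest 33.3% left out and no quantile normalization moved these counts by no more than 1.5 times. Without array A at 14 h, a choice made after the data were seen, the count of called members moved by over 1.5 times in 17 of 38 lists; with median scaling it did in 11. Signals near or below 16 limit what dim genes can show.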

Other observations

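The following genes were chosen after the metallothionein values were seen, because they handle zinc or answer to it. Slc30a1, a zinc exporter, was dim, with 15.6, 19.3 and 15.4 at 14 h, against 34.6, 31.5 and 25.9 at 7 h and 32.3, 31.9 and 28.2 at 21 h. Its arrays at 14 h lay below those of both neighbouring times, but the change was not called (-0.53, SE 0.29, adjusted p = 0.458), nor was the difference between intervals (-1.09, adjusted p = 0.811). Between 14 h and 7 h alone, in either direction, 15.7% of all probe sets did not overlap. The share lying below both neighbouring times was not counted, so the 15.7% is not a like comparison. Mt3, a metallothionein gene of the brain, averaged 511 at 14 h, 683 at 7 h and 583 at 21 h (-0.41, adjusted p = 0.141). Mt4 averaged 8.0 at 14 h and 10.0 at 7 h. Mtf1, the transcription factor that binds metal response elements, averaged 100.4 at 14 h and 120 at 7 h (-0.33, adjusted p = 0.747). For Slc39a4, a zinc importer, a second and dimmer probe set was called lower, with 33.6, 4 and 2.6 at 14 h, against 55.8, 54.7 and 59 at 7 h (-1.47, SE 0.31, adjusted p = 0.0143), while the brighter one, of uncertain type, was not (0.10, adjusted p = 0.903).

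The smallest adjusted p between 14 h and 7 h among the 6 probe sets with a difference between intervals was that of the bright probe set without a gene symbol. Its mean signals at 0, 3, 7, 14, 21 and 30 h were 240, 192, 428, 1863, 2774 and 2886. Of the 289 called probe sets 29 had no symbol or several.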
